A study of Mus musculus with 8 samples.

Results

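The proteasome is the protease that degrades most short-lived and damaged proteins of the cell after they have been tagged with ubiquitin. Its barrel-shaped core particle is built from stacked rings of alpha subunits, which gate the entrance, and beta subunits, of which Psmb5, Psmb6 and Psmb7 carry the catalytic sites. The regulatory particle, made of a ring of ATPases (Psmc genes) and non-ATPase subunits (most Psmd genes), binds ubiquitinated substrates, unfolds them and feeds them into the core. Interferon and other immune signals exchange the catalytic subunits for Psmb8, Psmb9 and Psmb10 to give the immunoproteasome, which prepares peptides for presentation on MHC class I, and the activators encoded by Psme genes can cap the core in place of the regulatory particle.

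All gene symbols formed from Psma, Psmb, Psmc, Psmd or Psme and a number were taken as members, which gave 43 of the 23432 genes in the deposited count files. They comprised 7 alpha ring subunits, 7 constitutive beta ring subunits, 3 immunoproteasome catalytic subunits, 2 tissue-restricted core subunits (Psma8 and Psmb11), 6 regulatory particle ATPases, 11 regulatory particle non-ATPases, 3 assembly chaperones of the regulatory particle and 4 alternative activators. Of these, 41 passed the filter on low counts in every comparison. Psma8, a core subunit of germ cells, had between 0 and 6 counts in a library, and Psmb11, a core subunit of the thymus, had between 0 and 6 counts and was at 0 in 6 of 8 libraries, so neither was tested.

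Their transcripts were followed in 8 mouse libraries of polyadenylated RNA, with 2 libraries in each of 4 groups. At E16.5 (embryonic day), back skin epithelial cells carrying the K14-H2BGFP reporter were sorted from controls and from MOFfl/fl/K14Cre embryos (MOF cKO), in which MOF, the histone H4 lysine 16 acetyltransferase encoded by Kat8, is deleted by a Cre driven from the Krt14 promoter. At P0.5 (postnatal day), whole epidermis was peeled after dispase digestion from controls and from Kansl1fl/fl/K14Cre pups (Kansl1 cKO), which lose a subunit of the NSL complex in which MOF acts. Cre was therefore confined to keratinocytes and other Krt14-expressing epithelia, the animals were of mixed C57Bl/6J and CD-1 background, and the labels name the controls only as controls. Because stage, isolation and sequencer differ between E16.5 and P0.5, each deletion was compared with the controls of its own stage.

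Library depth ranged from 9108709 to 27561688 counts on genes. Epithelial identity was clear, with none of 10 epithelial markers at 0 in any library, but other cells were also represented although the E16.5 cells had been sorted for the reporter: summed macrophage markers were 125 and 157 CPM (counts scaled to the depth of the library) in E16.5 controls and 343 and 366 CPM in MOF cKO, and 1 library, P0.5 control replicate 1, held 259.8 CPM of muscle markers against 1.26 to 3.23 CPM in the other P0.5 libraries. Gene-level counts did not check the MOF deletion, since Kat8 had 14.4 and 14.7 CPM in the controls and 12.4 and 13.9 CPM in MOF cKO (log2 fold change −0.14 ± 0.18 SE) and the counts do not separate deleted from retained exons, while Kansl1 had 40.7 and 48.2 CPM in P0.5 controls and 31.4 and 30.6 CPM in Kansl1 cKO (log2 fold change −0.52 ± 0.17 SE, adjusted p = 0.242 in edgeR's quasi-likelihood test). In such bulk samples, fewer cells of a type and less RNA per cell cannot be told apart.

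Across groups, levels per length (RPKM, CPM per kilobase of all annotated exons of a gene together) separated the constitutive from the inducible subunits. In E16.5 controls, median levels were 37.7 RPKM for the alpha ring, 63.8 for the constitutive beta ring, 60.6 for the ATPases and 34.2 for the non-ATPases. Within the alpha ring the range was from 31.0 RPKM for Psma2 to 92.5 for Psma5, and within the non-ATPases from 10.1 RPKM for Psmd11 to 74.9 for Psmd2. Such ranges depend on the exon length, which can exceed that of the transcript present. Psma2 (3673 bases) and Psma5 (1321 bases) had similar mean levels of 124 and 133 CPM in these controls. Assembly chaperones, which leave the particle once it is built, were lower, at 4.86 (Psmd9) to 9.68 RPKM (Psmd10). The lowest of the 41 were the immunoproteasome subunits Psmb8 and Psmb9, which took the last places in the order in every group. Psmb4, a structural beta subunit, had the highest mean RPKM in both P0.5 groups, and Psma5 in both E16.5 groups.

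**Figure D1:**
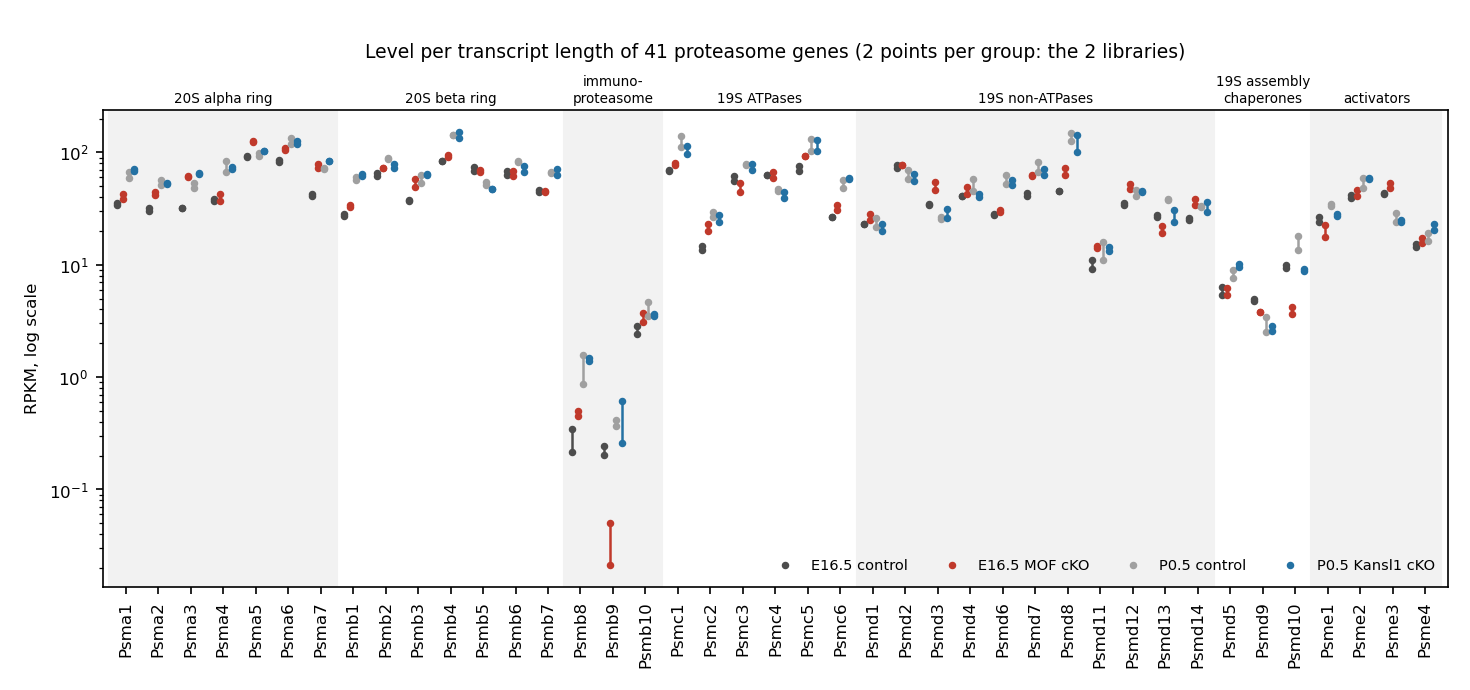
Level of each of 41 proteasome genes in RPKM (log scale, vertical axis), ordered by role along the horizontal axis, with the 2 libraries of each group as joined points. The constitutive subunits lie mostly between 10 and 150 RPKM in all groups, while Psmb8 and Psmb9 stay below 2 RPKM and Psmb9 is lowest in the E16.5 MOF cKO libraries.

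In MOF cKO cells at E16.5, transcripts of 3 proteasome subunits rose and 1 fell. Psma3 and Psma7, both of the alpha ring, and Psmc2, an ATPase of the regulatory particle, were the 3 that rose at an adjusted p of at most 0.01 and a fold change over 1.5, 7.32% of the 41 tested against 10.0% of all 13956 genes tested. Psmd10, the assembly chaperone also known as gankyrin, was the 1 that fell, 2.44% against 9.59% of all genes. Beyond these calls the members leaned upward: both MOF cKO libraries lay above both controls for 27 of 41 (65.9%), compared with 34.9% of all genes, and below both controls for 6 (14.6%), compared with 37.7%. The median log2 fold change was 0.21 over the members and −0.02 over all genes. Of the 41 members 31 had a positive log2 fold change (75.6%, against 49.1% of all genes). Scaling by library size alone lowered every gene alike, to a median of −0.32 over all genes and −0.09 over the members, so that 16 of 41 (39.0%) were positive against 32.3% of all genes, and left Psma3 as the 1 rise, with Psmd13 and Psmd9 joining Psmd10 as falls. Without MOF cKO replicate 1 the rises were 6 and the fall was 1. Cell-type markers moved in the same libraries: Krt1 and Krt10, keratins of differentiated cells, rose by 1.67 ± 0.13 and 1.12 ± 0.13 on the log2 scale (edgeR adjusted p = 0.000394 and 0.00105). Of the keratins of basal cells, Krt15 fell, while Krt14 and Krt5 were not called (0.20 ± 0.11 and −0.04 ± 0.14, edgeR adjusted p = 0.183 and 0.836). Among 8 fibroblast markers, 7 lay above both controls (median log2 fold change 1.07). The part of these cell types and states in the proteasome values was not tested. In single-cell RNA sequencing at an earlier embryonic stage, the study reports the opposite direction. There, proteasome was among the categories enriched in genes downregulated in MOF cKO basal and suprabasal cells. Stage, method and the measure, enrichment among downregulated genes, differ from those used here.

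Psma3 measured 135 and 135 CPM in the controls and 255 and 259 CPM in MOF cKO. The replicates lay close together and the groups were far apart, a 1.90-fold difference (log2 fold change 0.93 ± 0.10 SE, adjusted p = 0.000773 in edgeR's quasi-likelihood test). Psma7 rose from 142 and 137 CPM to 264 and 242 CPM, 1.81-fold (log2 fold change 0.85 ± 0.10, edgeR adjusted p = 0.00117). Psmc2, which had the lowest control level per length of the ATPases, rose from 74.4 and 80.3 CPM to 109 and 126 CPM, 1.53-fold (log2 fold change 0.61 ± 0.12, edgeR adjusted p = 0.00733). Its call sat near the fold threshold, as it was lost without E16.5 control replicate 1 and without MOF cKO replicate 2, whereas Psma3 and Psma7 were called without any single library.

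Psmd10 measured 14.9 and 15.9 CPM in the controls and 6.73 and 5.84 CPM in MOF cKO. This 2.46-fold lower level (log2 fold change −1.30 ± 0.21, edgeR adjusted p = 0.00338) was the only call in that direction, and it held without any single library, with log2 fold changes between −1.40 and −1.20. Psmd10 is on chromosome X, and Xist, the transcript of the inactive X, had 46531 counts in E16.5 control replicate 1 but 236 to 283 in the other E16.5 libraries. The part of this difference between libraries in the Psmd10 value was not tested.

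**Figure D2:**
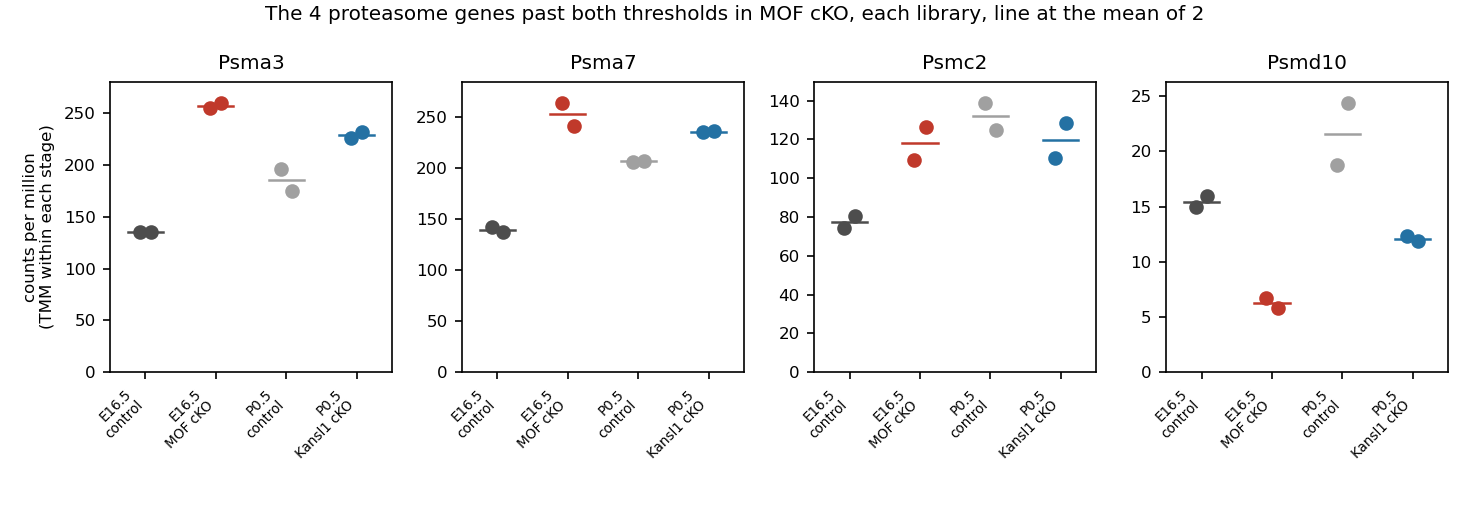
CPM (vertical axes, from 0) of Psma3, Psma7, Psmc2 and Psmd10 in each of 8 libraries, with a line at the mean of each group of 2. In MOF cKO the first 3 lie above both E16.5 controls and Psmd10 lies below them, at 6.73 and 5.84 CPM, and in Kansl1 cKO Psmd10 lies at 12.3 and 11.9 CPM below both P0.5 controls.

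The upstream DNA of these 4 genes is shown because their starts differ in arrangement: Psma3 has no gene opposite to it, while the other 3 start next to a gene on the other strand. Each line gives the longest stretch of the 250 bases before a RefSeq start that no annotated exon covers, for Psmc2 at its first start, 5′ to 3′ on the strand of the gene, in build GRCm38.p6. Capitals mark CCAAT, or ATTGG where the box is on the other strand, within the stretch printed. CCAAT also occurs in the full 300-base windows of Psma7 and Psmc2, outside the stretches printed. The Psma3 stretch is chr12:70974373-70974620 on the + strand, Psma7 is chr2:180042465-180042508 on the − strand, Psmc2 is chr5:21785252-21785274 on the + strand, and Psmd10 is chrX:140956729-140956906 on the − strand.
Psma3: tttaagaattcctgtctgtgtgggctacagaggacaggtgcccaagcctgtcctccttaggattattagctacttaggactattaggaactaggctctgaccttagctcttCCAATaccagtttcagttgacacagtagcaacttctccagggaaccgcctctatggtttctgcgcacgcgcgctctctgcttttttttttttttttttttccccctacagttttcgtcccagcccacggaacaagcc
Psma7: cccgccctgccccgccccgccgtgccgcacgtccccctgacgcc
Psmc2: gcgcgcggccgcctacttcctct
Psmd10: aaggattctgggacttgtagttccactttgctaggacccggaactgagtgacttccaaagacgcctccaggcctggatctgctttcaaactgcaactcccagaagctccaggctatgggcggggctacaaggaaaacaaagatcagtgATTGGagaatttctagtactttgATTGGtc
The stretch of Psmd10, which is the whole interval between it and the autophagy protease gene Atg4a, holds ATTGG at 2 places, and those of Psma7 and Psmc2 are G and C rich (86.4% and 73.9% G or C, against 48.9% for Psmd10 and 47.6% for Psma3). At a second RefSeq start of Psmc2, not shown, the stretch has 153 bases, of which 45.1% are G or C.

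RefSeq promoter windows of 300 bases (250 before to 50 after the start) were found for 36 of the 43 members, 39 windows in all. The ETS motif CCGGAAG, searched on both strands like all that follow, was in 33.3% of the member windows and 8.86% of all 32851 windows. CCAAT was in 35.9% of member windows against 37.4%. The antioxidant response motif TGACNNNGC, the kind of site bound by Nfe2l2 and Nfe2l1, was in 15.4% against 12.4%. The genes with it were Psmb5, Psmb6, Psmc6, Psmd12, Psmd9 and Psme4. The interferon response motif GAAANNGAA was in 15.4% against 8.56%, and of the immunoproteasome genes none had it in these windows. Of the 3 genes that rose, Psmc2 had the ETS and the interferon response motif, none had the antioxidant response motif, and all 3 had CCAAT. GTTGCCATG, an X box of the kind that RFX factors bind, was in 0 member windows and 0.773% of all. A sequence this rare would seldom occur in 39 windows, so the 0 cannot show an absence of RFX sites. The study reports RFX2 and MOF binding at the promoter that Psmd13 shares with Sirt3, and lists both genes as downregulated in MOF cKO. Matches of letters in a window describe sequence only.

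Taking the roles in turn, all 7 genes of the alpha ring had a positive log2 fold change (0.07 to 0.93, median 0.44) and 6 had both MOF cKO libraries above both controls. Besides Psma3 and Psma7, Psma2 passed the adjusted p but not the fold threshold, at 121 and 126 CPM in controls and 177 and 167 CPM in MOF cKO (log2 fold change 0.48 ± 0.10, edgeR adjusted p = 0.00934). It was 1 of 8 members, 19.5%, to pass the adjusted p alone in the upward direction, a criterion that 10.8% of all genes met, and in the downward direction Psmd10 alone did so, where 9.79% of all genes did.

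The constitutive beta ring showed no call in either direction, with log2 fold changes from −0.06 to 0.51 (median 0.14). The catalytic subunits differed from the controls by less than their errors. Psmb5, the chymotrypsin-like subunit, had 67.2 and 71.7 CPM in controls and 67.8 and 65.2 in MOF cKO (log2 fold change −0.06 ± 0.11). Psmb6, the caspase-like subunit, had 127 and 138 against 124 and 138 CPM (log2 fold change −0.01 ± 0.11). Psmb7, the trypsin-like subunit, had 173 and 165 against 166 and 168 CPM (log2 fold change −0.01 ± 0.10). For these 3 the groups overlapped, and their 95% intervals stayed within a 1.5-fold change either way. The highest log2 fold change of the ring was that of Psmb3, a structural subunit (94.3 and 92.0 CPM to 123 and 144 CPM, 0.51 ± 0.12, edgeR adjusted p = 0.0127).

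The immunoproteasome catalytic subunits did not pass the test in either direction and did not move together. Psmb9, which replaces Psmb6, had 30 and 22 counts in the controls and 4 and 2 counts in MOF cKO, or 0.978 and 0.794 against 0.201 and 0.0847 CPM. The groups did not overlap, and the log2 fold change of −2.62 ± 0.89 had an edgeR adjusted p of 0.0522. It was −3.32 without MOF cKO replicate 1 and −2.12 without MOF cKO replicate 2. Over both libraries of each group the ratio was 0.155, with a 95% interval for counting error alone of 0.0543 to 0.36. Psmb8, which replaces Psmb5, had 39 and 22 counts against 33 and 43 (log2 fold change 0.75 ± 0.60, edgeR adjusted p = 0.356), and Psmb10, which replaces Psmb7, had 138 and 145 against 114 and 161 (log2 fold change 0.37 ± 0.30, edgeR adjusted p = 0.362). Both had higher CPM in both MOF cKO libraries than in both controls, but each difference was close to its standard error. For counting error alone, their ratios were 1.67 (95% interval 1.18 to 2.38) for Psmb8 and 1.30 (1.10 to 1.54) for Psmb10.

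Per length of annotated exon the inducible forms were a small part of each pair. The shares depend on these lengths, which were 3381 bases for Psmb8 and 899 for Psmb5. Psmb8 made up 0.501% and 0.294% of the sum of Psmb8 and Psmb5 in E16.5 controls and 0.646% and 0.737% in MOF cKO. Psmb9 made up 0.392% and 0.294% of the Psmb9 and Psmb6 sum in controls and 0.0826% and 0.0313% in MOF cKO. Psmb10 made up 4.96% and 6.0% in controls and 6.47% and 7.51% in MOF cKO. Macrophages and other leukocytes carry immunoproteasomes. Of 21 macrophage markers tested, 13 were called higher in MOF cKO and 20 lay above both controls (median log2 fold change 3.69). Summed markers of T cells and Langerhans cells (7 genes) were 10.53 and 11.88 CPM in E16.5 controls and 11.04 and 10.42 CPM in MOF cKO. Of these 7, 3 lay above both controls and 1 below, and Cd3g and Nkg7 were at 0 in both E16.5 controls. The part of macrophages and other leukocytes in the Psmb8, Psmb9 and Psmb10 values was not tested.

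**Figure D3:**
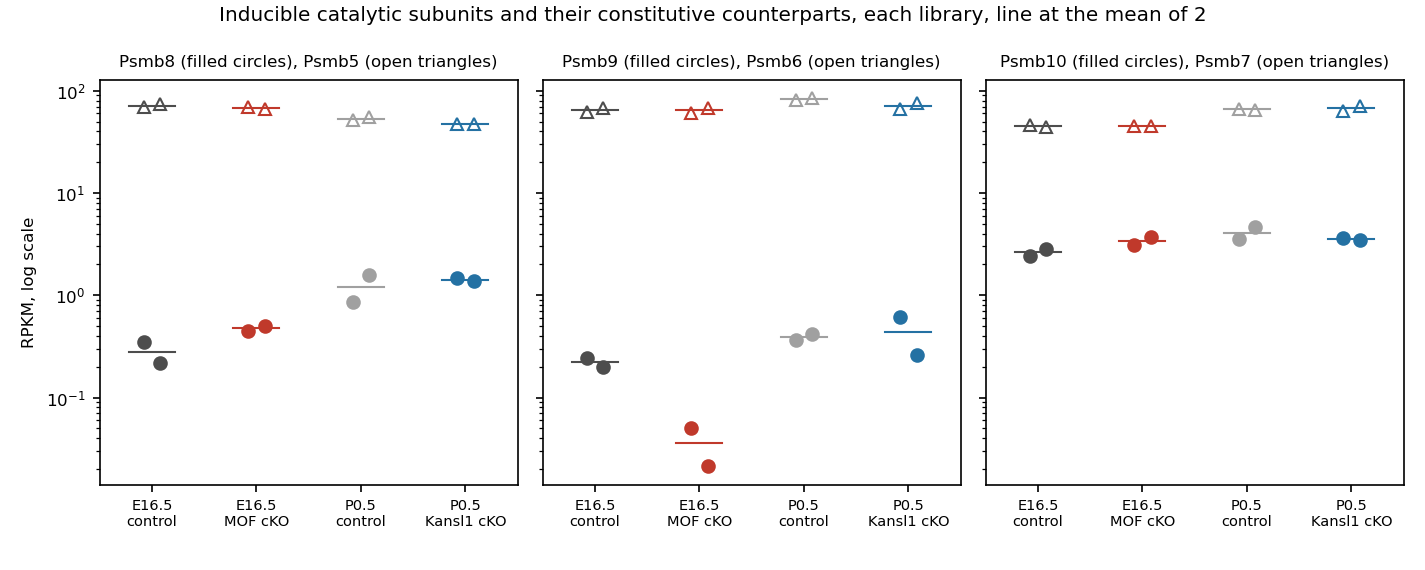
RPKM (log scale, vertical axis) of each immunoproteasome subunit (filled circles) and of the constitutive subunit it replaces (open triangles) in the 2 libraries of each group, with a line at the group mean. The open triangles stay between 44.5 and 84.6 RPKM, while Psmb9 drops to 0.0506 and 0.0213 RPKM in the E16.5 MOF cKO libraries and Psmb8 is higher in P0.5 than in E16.5 libraries.

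Among the regulatory particle ATPases, Psmc2 was the 1 call among 6, and the others ranged from −0.25 (Psmc3) to 0.37 (Psmc5) in log2 fold change. None of the 11 non-ATPase subunits was called, while 10 had a positive log2 fold change and the median was 0.50. Of these, 4 passed the adjusted p and fell short of the fold threshold, namely Psmd8 (log2 fold change 0.58 ± 0.11, edgeR adjusted p = 0.00636), Psmd3 (0.56 ± 0.11, 0.00801), Psmd7 (0.55 ± 0.10, 0.00592) and Psmd12 (0.52 ± 0.11, 0.00874). Psmd8, a lid subunit, went from 150 and 150 CPM to 209 and 239 CPM, and Psmd3, also of the lid, from 183 and 185 CPM to 250 and 293 CPM. These 2 were called by DESeq2, which gave 5 rises and 1 fall among the members, where it called 13.0% and 12.4% of all genes. The deubiquitinase Psmd14, which removes ubiquitin chains as substrates enter, had 77.2 and 79.7 CPM in controls and 105 and 117 in MOF cKO (log2 fold change 0.50 ± 0.11, edgeR adjusted p = 0.0122).

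Psmd13, another lid subunit, was the exception among the non-ATPases. Its values were 97.4 and 102 CPM in controls and 69.7 and 80.6 CPM in MOF cKO (log2 fold change −0.41 ± 0.12, edgeR adjusted p = 0.0322). Both MOF cKO libraries were thus below both controls, while the fall did not pass the threshold used here. The study lists Psmd13 as downregulated in MOF cKO. The assembly chaperones all had negative values: beside Psmd10, Psmd9 went from 37.9 and 38.6 CPM to 30.0 and 30.1 CPM (log2 fold change −0.35 ± 0.13, edgeR adjusted p = 0.0644), and Psmd5 differed by less than its error (−0.02 ± 0.14).

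None of the 4 alternative activators was called. Psme1 and Psme2 form the interferon-inducible PA28 cap, and their values pointed apart: Psme1 had 63.5 and 57.3 CPM in controls and 54.3 and 42.2 in MOF cKO (log2 fold change −0.33 ± 0.15, edgeR adjusted p = 0.126), and Psme2 had 75.2 and 79.5 against 89.1 and 79.0 CPM (0.12 ± 0.12, 0.448). Psme3, the nuclear PA28 gamma, had 141 and 136 against 172 and 154 CPM (0.24 ± 0.11, 0.114), and Psme4, the PA200 activator, had 141 and 130 against 157 and 142 CPM (0.14 ± 0.11, 0.339). With library size alone, 15 members with a positive log2 fold change turned negative, among them Psme2, Psme3 and Psme4 and the ubiquitin receptor Psmd4 (0.17 ± 0.11).

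**Figure D4:**
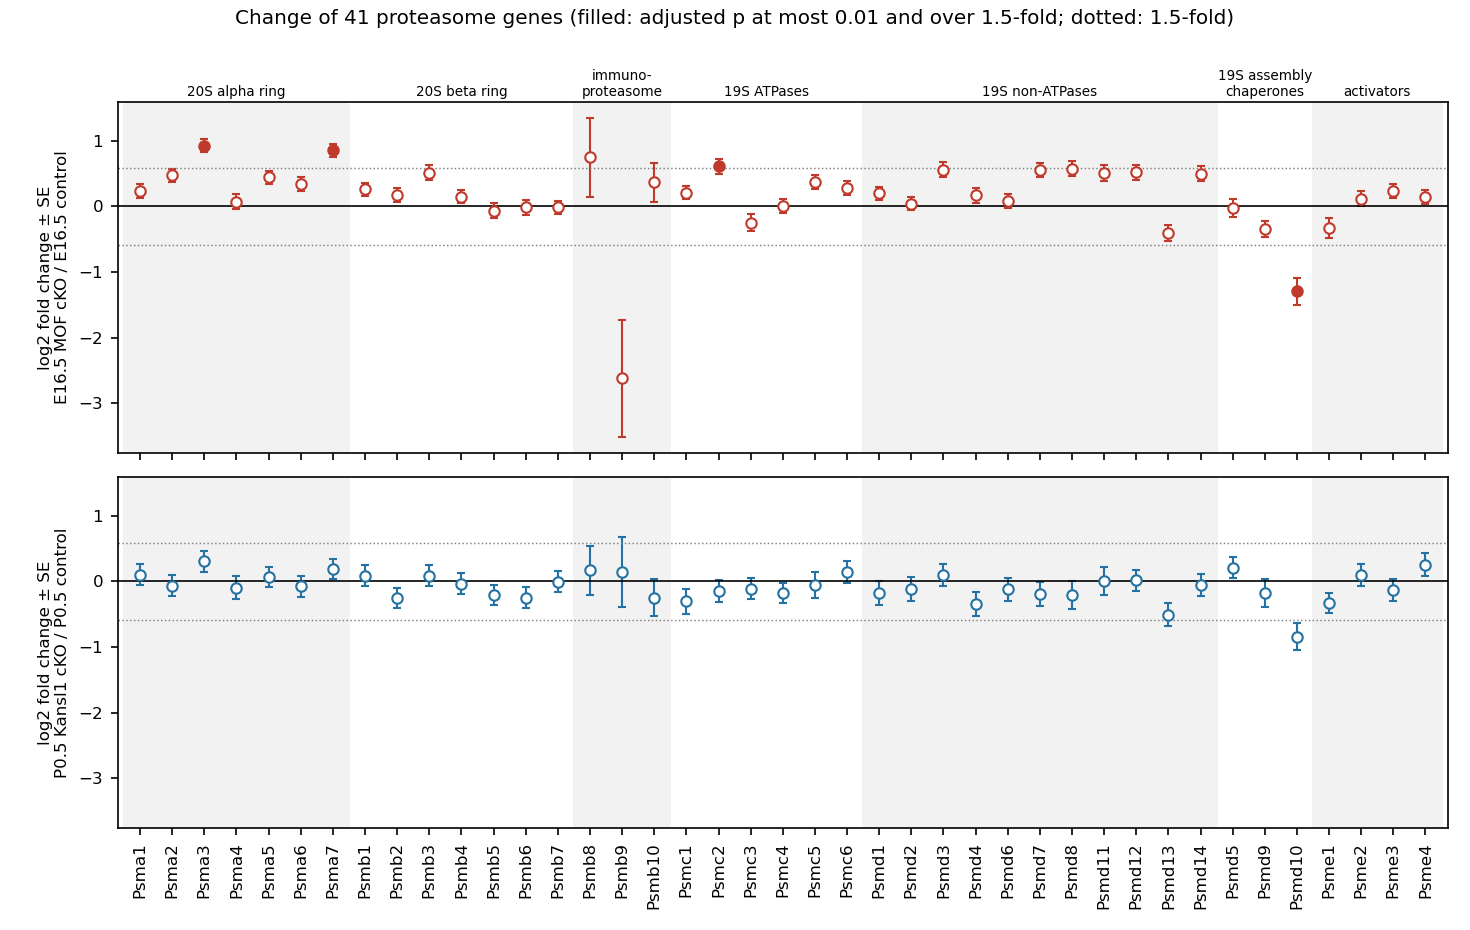
Log2 fold change with its standard error (vertical axes) of 41 proteasome genes, grouped by role from left to right, for MOF cKO at E16.5 (top) and Kansl1 cKO at P0.5 (bottom), each against controls of its stage; filled points pass both thresholds and dotted lines mark a 1.5-fold change. Psma3, Psma7 and Psmc2 are filled above 0 and Psmd10 below it in the top panel, and no point is filled in the bottom panel.

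Proteasome genes whose symbols lie outside the naming rule were followed in a list of 25 subunits, assembly factors, shuttles and regulators. In MOF cKO 5 of 25 rose and none fell (median log2 fold change 0.22), where 10.0% of all genes rose and 9.59% fell, and DESeq2 called 6 higher and 1 lower. Adrm1, the ubiquitin receptor Rpn13 of the regulatory particle, went from 99.2 and 97.0 CPM to 152 and 173 CPM (log2 fold change 0.73 ± 0.11, edgeR adjusted p = 0.00262). Shfm1, a small lid-associated subunit, went from 119 and 119 CPM to 204 and 183 CPM (0.70 ± 0.11, 0.00253). Txnl1, a thioredoxin that docks on the regulatory particle, rose by 0.77 ± 0.11 (adjusted p = 0.00196), and Vcp, the segregase that extracts ubiquitinated proteins, rose from 543 and 545 CPM to 846 and 836 CPM (0.63 ± 0.10, 0.00257). The core assembly chaperones Psmg1, Psmg2, Psmg3 and Psmg4, chosen after their values were seen, all had negative log2 fold changes (−0.41 ± 0.16, −0.84 ± 0.19, −0.17 ± 0.18 and −0.53 ± 0.44). Pomp, another core assembly factor, pointed the other way without being called, from 93.6 and 87.8 CPM to 120 and 124 CPM (0.43 ± 0.11, edgeR adjusted p = 0.0171). Psmg2, the gene that DESeq2 called lower, had 26.5 and 35.5 CPM in controls and 18.6 and 16.0 CPM in MOF cKO (edgeR adjusted p = 0.0117).

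The transcription factor gene Nfe2l2 (Nrf2) rose most of this list, from 41.6 and 39.7 CPM to 93.2 and 84.5 CPM (log2 fold change 1.13 ± 0.12, edgeR adjusted p = 0.000763). Nfe2l1, whose product is the main activator of proteasome genes when the proteasome is inhibited, measured 134 and 156 CPM in controls against 157 and 184 CPM (0.23 ± 0.13, edgeR adjusted p = 0.187). Among 17 tested partners of the immunoproteasome in antigen presentation and interferon signalling, 3 rose in MOF cKO and none fell, against the same 10.0% and 9.59% of all genes. These were B2m, the light chain of MHC class I (33.8 and 37.4 CPM to 77.3 and 74.4 CPM; log2 fold change 1.09 ± 0.12, edgeR adjusted p = 0.000838), the peptide-loading factor Tapbp (0.93 ± 0.13, 0.00169) and the interferon gamma receptor chain Ifngr2 (0.67 ± 0.12, 0.00485). Of the 17, 12 had a positive log2 fold change and 5 a negative one. Others of the list pointed down without passing the test, and were chosen after their values were seen. These were the peptide transporter subunit Tap2 (log2 fold change −1.22 ± 0.42, edgeR adjusted p = 0.056), the peptide editor Tapbpl (−1.20 ± 0.31, 0.0201) and the interferon signalling factor Stat2 (−0.72 ± 0.21, 0.0324). Genes that pointed up without passing it, also chosen after their values were seen, were Irf8 (log2 fold change 4.03 ± 1.22, edgeR adjusted p = 0.0358), H2-K1 (0.69 ± 0.20, 0.0329) and Nlrc5 (1.32 ± 0.55, 0.0961). Irf8 had 6 and 0 counts in the controls and 51 and 21 in MOF cKO.

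Some proteasome genes start head-to-head with a gene on the other strand. Such a neighbour with its start within 1000 bases was found for 11 members, and 9 of these neighbours were tested in MOF cKO. The tested neighbours of the genes that rose were not called: Ss18l1, whose start is 76 bases from that of Psma7, had a log2 fold change of 0.14 ± 0.18, and Dnajc2, at 32 bases from Psmc2, had 0.03 ± 0.11. Ftsj3, a ribosome assembly gene at 75 bases from Psmc5, had 0.47 ± 0.10 (edgeR adjusted p = 0.00996), beside 0.37 ± 0.10 for Psmc5 (0.0286), both short of the fold threshold. Atg4a, at 179 bases from Psmd10, went from 153 and 161 counts to 38 and 65 counts (log2 fold change −1.21 ± 0.38, edgeR adjusted p = 0.0399), a value close to that of Psmd10 that did not pass the threshold. Sirt3, which encodes a mitochondrial deacetylase and overlaps the start of Psmd13 by 341 bases, fell from 207 and 234 counts to 27 and 32 (log2 fold change −2.48 ± 0.35, edgeR adjusted p = 0.00203), far more than Psmd13 itself. Tap1, the peptide transporter gene that overlaps the start of Psmb9 by 211 bases, measured 21.2 and 16.7 CPM in controls and 16.7 and 22.2 CPM in MOF cKO while Psmb9 was low. The strand setting of the counting was not given in the sources used here, so reads in the overlapping stretches may be shared or lost.

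**Figure D5:**
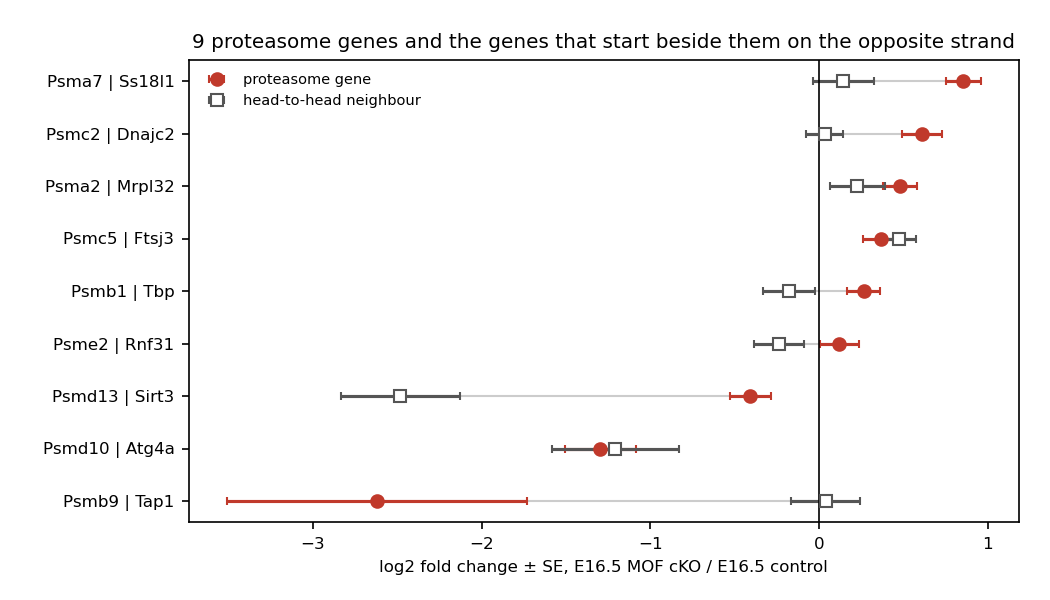
Log2 fold change with its standard error in MOF cKO (horizontal axis) of 9 proteasome genes (filled circles) and of the gene that starts beside each on the opposite strand (open squares), 1 pair per row. Circle and square lie together at −1.30 and −1.21 for Psmd10 and Atg4a, and apart for Psma7, Psmc2, Psmd13 and Psmb9.

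In Kansl1 cKO epidermis at P0.5 no proteasome gene was called in either direction by edgeR, as was the case for all 13031 genes tested (0.0% lower and 0.0% higher). DESeq2 called 0 members, and 0.506% of all genes lower and 0.269% higher. At an unadjusted edgeR p under 0.05, 2 members were lower (8.26% of all genes were) and 0 were higher (7.43% of all genes were). The median log2 fold change was −0.08 over the members and 0.01 over all genes, and both Kansl1 cKO libraries were above both controls for 6 members (14.6%, against 26.0% of all genes) and below both for 9 (22.0%, against 22.7%). For 24 of 41 members the 95% interval excluded a change of 1.5-fold in either direction. For the other 17, among them all 3 immunoproteasome subunits, a change of that size was not excluded at this number of libraries.

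The 2 genes with an unadjusted p under 0.05 in Kansl1 cKO were Psmd10 and Psmd13, both lower. Psmd10 had 18.8 and 24.4 CPM in the controls and 12.3 and 11.9 CPM in Kansl1 cKO (log2 fold change −0.84 ± 0.21, unadjusted p = 0.00502 and adjusted p = 0.204 in edgeR's quasi-likelihood test). The groups did not overlap. Xist was near absent (19 counts) in P0.5 control replicate 2, the library with the higher Psmd10 level, and without it the log2 fold change was −0.67. Psmd13 had 122 and 117 CPM in the controls and 74.3 and 94.2 CPM in Kansl1 cKO (log2 fold change −0.51 ± 0.18, edgeR adjusted p = 0.258). Atg4a and Sirt3, the genes beside them, had log2 fold changes of −0.80 and −0.63 with edgeR adjusted p of 0.279 and 0.512.

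The 3 highest log2 fold changes in Kansl1 cKO were those of Psma3 (196 and 175 CPM in controls, 226 and 232 CPM in Kansl1 cKO; 0.31 ± 0.16), Psme4 (0.26 ± 0.17) and Psmd5 (0.21 ± 0.16), with edgeR adjusted p from 0.411 to 0.564. Psmd4 had the lowest value after Psmd10 and Psmd13, at −0.35 ± 0.18 (edgeR adjusted p = 0.404). Psmb8, Psmb9 and Psmb10 had log2 fold changes of 0.17 ± 0.37, 0.15 ± 0.53 and −0.25 ± 0.28, each within its error. Psmb9 read 11 and 22 counts in the controls and 42 and 11 counts in Kansl1 cKO, so the replicates of one group differed more than the groups, and its sign turned when Kansl1 cKO replicate 1 was left out (−0.66). Summed macrophage markers were 496 and 484 CPM in P0.5 controls and 617 and 682 CPM in Kansl1 cKO, and fibroblast markers were 1762 and 1096 against 927 and 741 CPM. Melanocyte markers were 452 and 494 against 948 and 1084 CPM, with all 5 of them above both controls (median log2 fold change 1.11) and 4 called higher by DESeq2. Their part in these values was not tested.

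Side by side, 5 genes lay above both controls in each deletion (Psma3, Psma5, Psma7, Psmb1 and Psme4; 18.5% of the 27 such genes in MOF cKO and 83.3% of the 6 in Kansl1 cKO) and 3 lay below (Psmd10, Psmd13 and Psme1; 50.0% of the 6 in MOF cKO and 33.3% of the 9 in Kansl1 cKO). As shares of the genes tested in both these were 12.2% and 7.32% of the members, against 11.3% and 13.3% of all 12529 genes. Over the 41 members the log2 fold changes in the 2 deletions had a Pearson correlation of 0.32, against 0.20 over all 12529 genes, as a description across genes, which are not independent replicates. The difference between the 2 effects was tested in a fit over all 8 libraries. No member differed at an adjusted p of 0.01 and 1.5-fold, where 2.92% of 14565 genes did. At an adjusted p of 0.05, 4 members (9.76%) had a higher effect in MOF cKO than in Kansl1 cKO, against 7.04% of all genes, namely Psma7 (0.63 ± 0.17 on the log2 scale, edgeR adjusted p = 0.0376), Psmc2 (0.72 ± 0.20, 0.0414), Psmd7 (0.72 ± 0.20, 0.044) and Psma3 (0.59 ± 0.17, 0.0482). For Psmd10 the difference was −0.49 with an edgeR adjusted p of 0.287. Gene, stage and isolation vary together in this contrast and cannot be told apart.

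Between the controls, more proteasome genes were called higher than lower at P0.5 against E16.5. In the fit over all 8 libraries 16 of 41 members were called higher at P0.5 (39.0%, against 19.6% of all genes) and 2 lower (4.88%, against 20.6%). With library size alone 7 were called higher and 5 lower. Without P0.5 control replicate 1, the library with muscle markers, 15 were called higher and 1 lower. The median log2 difference was 0.54 over the members and −0.13 over all genes. DESeq2's size factors moved the median of all genes to 0.00 and library size alone to −0.46, shifts that every gene shares. The calls covered 5 of 7 alpha ring genes, 3 of 7 constitutive beta ring genes, 4 of 6 ATPases, 3 of 11 non-ATPases and 1 of 3 immunoproteasome subunits. Markers of cell state differed in the same libraries, with Krt1 and Krt10 higher at P0.5 by 4.47 ± 0.33 and 3.75 ± 0.31 on the log2 scale, a log2 difference of −0.93 ± 0.14 for Krt5, a basal-cell keratin, and all 5 melanocyte markers called higher (median log2 difference 4.24). Their part in the proteasome values was not tested.

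Psmd8, chosen after its values were seen, had the largest constitutive difference, at 45.1 and 45.4 RPKM in E16.5 controls and 149 and 125 RPKM in P0.5 controls (log2 difference 1.60 ± 0.18, edgeR adjusted p = 9.91e-05). Psmb8 was higher still in ratio, at 0.346 and 0.217 RPKM against 0.869 and 1.56 RPKM (2.12 ± 0.45, 0.00327), and made up 1.65% and 2.77% of its pair with Psmb5 in P0.5 controls. Psmb5 itself leaned the other way, at 68.6 and 73.7 RPKM against 51.7 and 54.9 RPKM (−0.42 ± 0.13, edgeR adjusted p = 0.0194). Summed macrophage markers were 125 and 157 CPM in E16.5 controls and 496 and 484 CPM in P0.5 controls, and of the 21 markers 19 were called higher; their part in the Psmb8 difference was not tested.

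The 2 calls in the other direction were Psme3 (43.8 and 42.7 RPKM at E16.5, 29.1 and 24.0 RPKM at P0.5; log2 difference −0.71 ± 0.14, edgeR adjusted p = 0.00192) and Psmd9 (4.80 and 4.92 RPKM against 2.53 and 3.44 RPKM; −0.70 ± 0.18, 0.00839). Neither was called by DESeq2 or with its size factors, or without E16.5 control replicate 1 or replicate 2, and 1 of them was called when any other single library was left out. Outside the naming rule, the core assembly factor Pomp was higher at P0.5 (log2 difference 1.40 ± 0.12, edgeR adjusted p = 2.13e-05), as was Shfm1 (1.25 ± 0.14, 0.000105), and the shuttle factor Ubqln4 was lower (−1.51 ± 0.16, 7.19e-05). Sorted cells and peeled epidermis, stage and sequencer all differ between these controls, and their parts cannot be told apart.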

How the data were processed

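Per the labels and the methods of the study, RNA from sorted E16.5 epithelial cells or peeled P0.5 epidermis was made into directional polyadenylated RNA libraries and sequenced in pairs of reads. The authors aligned reads to mm10 and deposited whole-number counts per gene from HTSeq, not normalized. The methods name HISAT2 as aligner and the submitters' processing notes name TopHat2. The annotation release and the strand setting were not given in the sources used here. Entries that name no gene held 21.1% to 26.0% of the reads and were left out.

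The deposited counts were filtered with filterByExpr, scaled by TMM and tested with edgeR 4.0.16 in R 4.3.3 (quasi-likelihood test, Benjamini-Hochberg adjustment over all genes tested). The threshold was an adjusted p of at most 0.01 with over 1.5-fold, each experiment being fitted alone. The difference between the deletions and that between the controls came from 1 fit over 8 libraries. Standard errors were derived from the F statistic and 95% intervals from its t distribution. CPM values use the factors of each stage and RPKM values those of all libraries. Lengths are those of all exons of a gene together in GENCODE M21, which matched 98.2% of symbols. Depth limits the low genes: 3 counts were worth 0.0978 to 0.344 CPM, and counting intervals cover counting error only. The fit was also run on simulated counts with known changes well over 1.5-fold and no spread particular to each gene. That run does not bear on calls near the threshold.

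Replicates are separate samples by their labels. The study describes 2 pairs of samples per experiment and littermate controls, without tying replicate numbers to litters, and p-values measure the spread between these samples. Alternatives were DESeq2 1.42.0, other scaling factors, other filters, a replicate block, other thresholds and leaving out each library. Named were the immunoproteasome subunits and their counterparts, the Psme genes, members called in MOF cKO, the 3 highest and 3 lowest members in each deletion, and called or head-to-head genes outside the rule; others were chosen after their values were seen. Members, lists and tests were chosen with earlier results of these data known. Pseudogenes of Psmb5, Psmb6 and Psmb7 and the paralog Psme2b exist in the annotation, so reads of Psmb5, Psmb6, Psmb7 and Psme2 are uncertain where the sequences match.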

Additional observations from a re-analysis of the deposited data

Results flagged for a closer look

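The effects of the 2 deletions differed for 4 proteasome genes when the difference itself was tested over all 8 libraries, at an adjusted p of at most 0.05 and over 1.5-fold in edgeR's quasi-likelihood test. The log2 effect of the MOF deletion minus that of the Kansl1 deletion was 0.59 ± 0.17 SE for Psma3 (adjusted p = 0.0482), 0.63 ± 0.17 for Psma7 (adjusted p = 0.0376), 0.72 ± 0.20 for Psmc2 (adjusted p = 0.0414) and 0.72 ± 0.20 for Psmd7 (adjusted p = 0.044). None passed at 0.01. The 4 were 9.76% of the 41 members tested, and 7.04% of all 14565 genes passed in that direction at 0.05. Deleted gene, stage and isolation vary together in this contrast and cannot be told apart. With 2 libraries per group, no search for single libraries far from the rest of their group was made.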

How the results depend on the processing

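The 1 fall and 3 rises of proteasome genes in MOF cKO became 3 and 1 with library size alone. The rises became 5 with DESeq2 and 5 with its size factors, and 8 without the fold threshold. Leaving out each library gave 2 to 6 rises (6 without MOF cKO replicate 1) and 1 fall each time. The Kansl1 counts were 0 under all alternatives run. Between controls, 2 genes were lower at P0.5, and these became 0 with DESeq2, 0 with its size factors, 0 from the control libraries alone, 1 with a filter of at least 1 count and 5 with library size alone, and between 0 and 1 when each library was left out (0 without E16.5 control replicate 1 or replicate 2). The 16 higher became 7 with library size alone and 13 to 21 without 1 library. The 0 members whose effects differ between deletions became 4 with DESeq2, 3 with a filter of at least 1 count and 4 at an adjusted p of 0.05. With library size alone, a shift that lowers every gene alike, 15 members turned negative in MOF cKO. Of the genes followed through all alternatives, and where the value under the main scaling exceeded its standard error, these were Psme2 (−0.19), Psme3 (−0.069), Psme4 (−0.17) and Psmd4 (−0.14). The cause of these shifts was not tested beyond the fewer samples and other filters that the alternatives themselves bring. A fit with the replicate number as a block gave 3 rises and 1 fall in MOF cKO and 0 of each in Kansl1 cKO, and 0 members whose effects differ, as without it. No block was run between the controls of different stages. Same-numbered libraries deviated together with a correlation of 0.27 at E16.5 and −0.30 at P0.5, and no label ties the numbers to a litter or day, although the study describes littermate controls and pairs of samples. The crossed pairing at P0.5, chosen after seeing the data, gave 0 calls.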
